A study of Arabidopsis thaliana with 12 samples.

Results

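Arabidopsis thaliana carries a family of C2H2 zinc finger transcription factors that act in stress signalling, and 8 of its members were followed here: ZAT6, ZAT7, ZAT10, ZAT11, ZAT12, AZF1, AZF2 and AZF3. They were taken by locus identifier, as 8 of the 38088 loci in a table of mRNA levels. It covers whole seedlings of 2 genotypes, Col-0 as the wild type and dcp5-1, which carries a mutation in DCP5, an mRNA decapping factor gene. Seedlings 5 days old, raised on agar with 1x MS salts, rested for 30 min in liquid 1x MS and were sampled after 0 or 60 min in the same medium containing 150 mM NaCl. All groups shared 3 days of cold at 4 °C, growth at 22 °C and a cycle of 16 h light and 8 h dark. Each of these 4 groups had 3 libraries, and nothing in the labels says whether libraries of a group came from separate cultures, so the p-values measure only the spread between these libraries. No group spent the 60 min without NaCl, so the salt and the added time in liquid cannot be told apart, and "salt response" below means 60 min against 0 min. In whole seedlings, fewer cells of a type and less RNA per cell cannot be told apart either.

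Levels are given in FPKM, which adjust read fragments for the size of the library and the length of the transcript, so that genes can be compared. Reads behind them were estimated with scales of 14525000 to 21000000 reads per library, and the 8 genes then held between 1 and 2032 reads in a library. The scales were fitted on genes with 1 transcript of over 1000 nt. AZF3, ZAT11 and ZAT12 are shorter and AZF2 has 2 transcripts, so their estimates need not be whole reads. At 0 min DCP5 itself ran from 48.5 to 52.1 FPKM in Col-0 and from 13.0 to 13.2 FPKM in dcp5-1, and 76.6 to 84.9 against 20.2 to 20.7 FPKM at 60 min. RNA of shoot and root was present in every group. The summed level of 6 root markers ran from 90.9 to 128 FPKM in Col-0 at 0 min, from 131 to 135 at 60 min, from 68.8 to 74.7 in dcp5-1 at 0 min and from 102 to 106 at 60 min. Most of this sum was the aquaporin gene TIP2;3, with means of 94.6 and 118 FPKM in Col-0 and 61.6 and 96.2 FPKM in dcp5-1 at 0 and 60 min. Of the 4 root markers tested, TIP2;3 was called higher with salt in both genotypes, while EXPA7 and WER were called lower in dcp5-1. COBL9, at a lower level, had means of 1.97 and 0.664 FPKM in Col-0 and 0.959 and 0.335 FPKM in dcp5-1 at 0 and 60 min. Of the 6, the nitrate transporter gene NRT2.1 was listed at 0 in all 3 Col-0 libraries of 0 min and was at most 0.0804 FPKM elsewhere. The summed level of 5 shoot markers, which encode light-harvesting, photosystem and Rubisco proteins, moved with salt and with genotype. It ran from 26950 to 32090 FPKM in Col-0 at 0 min, from 10150 to 11750 at 60 min, from 15920 to 17580 in dcp5-1 at 0 min and from 9217 to 9538 at 60 min. The part of these shifts in the results below was not tested.

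Zinc finger proteins of the C2H2 type hold a zinc ion between pairs of cysteines and histidines and bind DNA. The ZAT and AZF proteins carry a plant version of the finger, with a run of glutamine, alanine, leucine, glycine, glycine and histidine in the part that contacts DNA. Most of them also end in a short EAR motif, a stretch that recruits TOPLESS corepressors and histone deacetylases, so they are known mainly as repressors. Salt, drought, cold, wounding and hydrogen peroxide induce many of these genes within minutes to hours, and plants with more or less of single members were reported to differ in salt, drought or oxidative tolerance.

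The 8 genes have 1 exon each, and each coding sequence holds 2 such fingers. The first finger of 6 genes is given here because 2 pairs in it carry the contrast that follows: ZAT6 and ZAT10 are the closest members in coding sequence, at 71.7% identity, and moved in opposite directions with salt, while ZAT7 and its chromosomal neighbour AT3G46080, at 88.2% identity, were both lower at 60 min. Capitals mark the codons of the glutamine to histidine run. The sequences are from the NCBI RefSeq genome of build TAIR10.1, 5′ to 3′ on the coding strand.
ZAT6: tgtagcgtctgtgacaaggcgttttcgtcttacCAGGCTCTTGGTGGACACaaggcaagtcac
ZAT10: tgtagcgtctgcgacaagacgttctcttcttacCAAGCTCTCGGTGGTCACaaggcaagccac
AZF2: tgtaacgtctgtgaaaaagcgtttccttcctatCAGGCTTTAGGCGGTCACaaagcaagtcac
ZAT7: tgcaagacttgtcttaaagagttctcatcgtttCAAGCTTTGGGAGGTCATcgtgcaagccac
AT3G46080: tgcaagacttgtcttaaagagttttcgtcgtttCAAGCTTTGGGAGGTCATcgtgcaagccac
ZAT12: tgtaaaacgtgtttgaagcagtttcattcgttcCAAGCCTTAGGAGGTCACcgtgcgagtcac
The ZAT6 finger lies at chr5:1216705-1216767 and the ZAT10 finger at chr1:9648680-9648742, both on the minus strand, and 55 of their 63 bases are identical. The ZAT7 finger at chr3:16926625-16926687 and that of AT3G46080 at chr3:16923071-16923133, also on the minus strand, share 61 of 63 bases. The AZF2 finger lies at chr3:6803731-6803793 on the minus strand and shares 51 bases with ZAT6. The ZAT12 finger lies at chr5:24103193-24103255 on the plus strand. Identity between the coding sequences of members ran from 38.0% for ZAT7 with AZF1 and AZF2 to the 71.7% of ZAT6 and ZAT10.

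The 8 genes split with salt in Col-0: ZAT6 and AZF2 rose, and ZAT7, ZAT10, ZAT11, ZAT12, AZF1 and AZF3 fell. With limma on log2(FPKM + 1) and Benjamini-Hochberg adjustment over the 19876 loci whose mean reached 1 FPKM, 2 were called higher and 6 lower at an adjusted p under 0.05. Of all loci tested 36.3% were called higher and 35.7% lower, 72.0% in all, so a call as such is common here. The median log2 change of the members was -1.39, against 0.01 over all loci tested and -0.37 over the 6041 loci of like transcript length, 702 to 1415 nt. ZAT7 passed the minimum of 1 FPKM only through its 0 min libraries, so its fall had to follow from its passing. Without it the counts were 2 higher and 5 lower. Libraries of 0 and 60 min did not overlap for any of the 8, as they did not for 37.4% of all loci in the higher and 36.0% in the lower direction. The summed shoot markers fell over the same comparison, with 4 of 5 called lower and 0 higher (0 at an unadjusted p under 0.05), while all 3 guard cell markers were called higher.

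**Figure D1:**
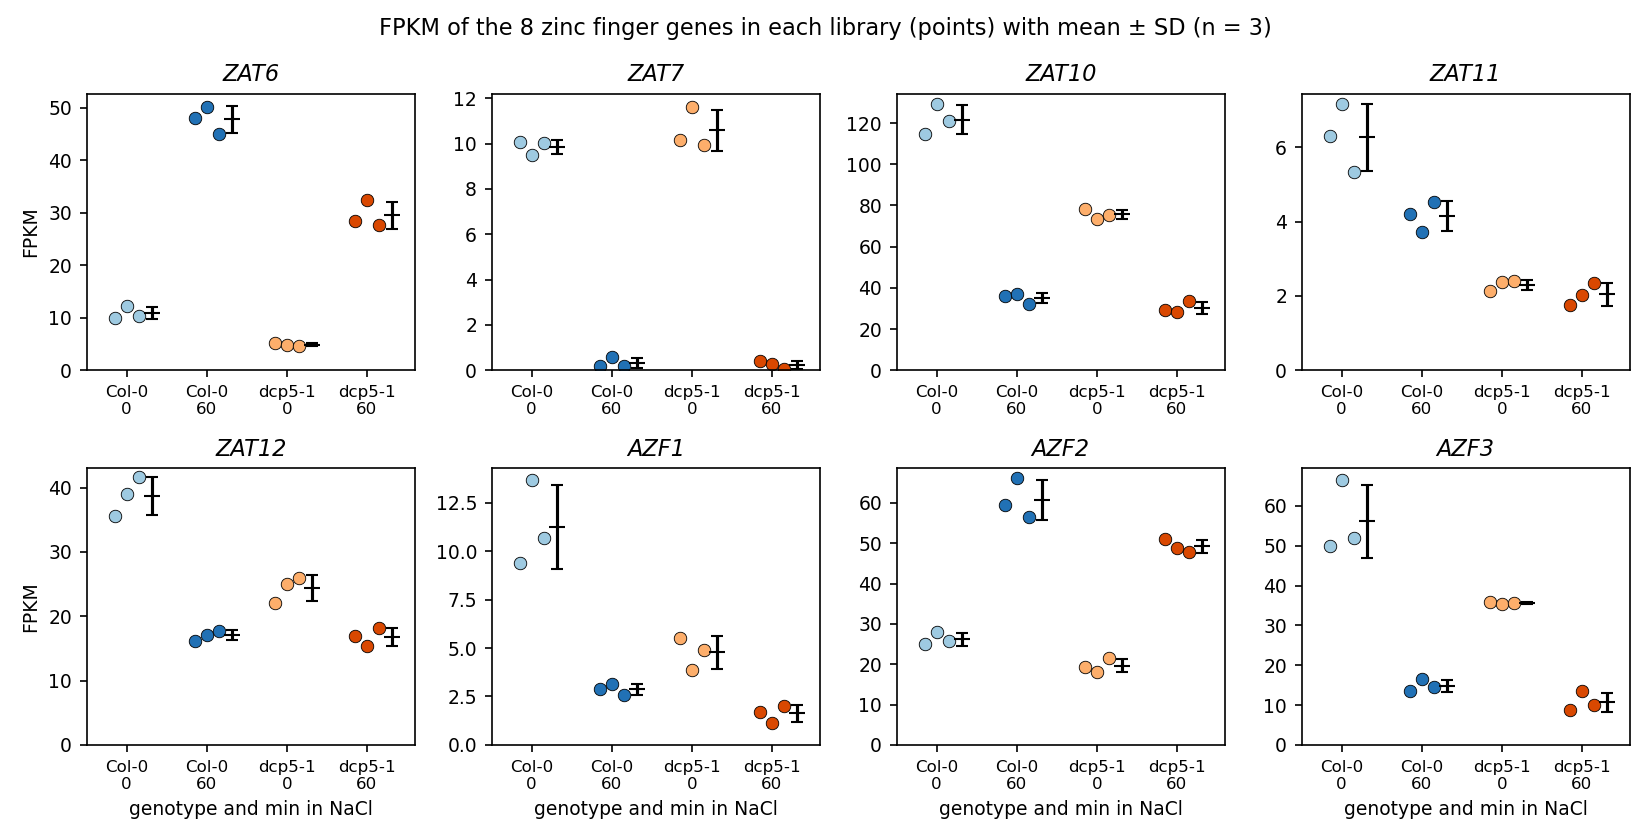
Level of each gene in FPKM (vertical axes, linear and from 0, with a separate range per gene) in the 12 libraries, by genotype and min in NaCl. Points are libraries and bars the mean ± SD of 3. ZAT6 and AZF2 stand higher at 60 min, ZAT7 drops to under 1 FPKM, and the ZAT12 libraries of both genotypes overlap at 60 min.

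ZAT6, a factor linked to root growth, phosphate supply and cadmium tolerance, is at AT5G04340, chr5:1216058-1217362. It had 10.0, 12.2 and 10.4 FPKM in the Col-0 libraries at 0 min and 48.1, 50.2 and 44.9 FPKM at 60 min. Every 60 min library stood far above every 0 min library. The mean rose 4.39-fold, from 10.9 ± 1.16 to 47.7 ± 2.64 FPKM (SD, n = 3; log2 change 2.04, SE 0.08, limma adjusted p = 1.07e-09), which was the steepest rise among the 8. AZF2, known as an abscisic acid-induced repressor of growth genes (AT3G19580, chr3:6802903-6804296), had 24.9, 27.9 and 25.7 FPKM at 0 min and 59.6, 66.2 and 56.6 FPKM at 60 min. It rose 2.32-fold (log2 change 1.18, SE 0.07, limma adjusted p = 3.96e-08), again without overlap. The 2 genes that rose thus had different starting levels, AZF2 being higher than ZAT6 in every Col-0 library of either time.

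ZAT10, also called STZ for salt tolerance zinc finger (AT1G27730, chr1:9648021-9649323), was the most abundant of the 8 before salt. Its Col-0 libraries held 115, 129 and 121 FPKM at 0 min and 35.8, 37.1 and 32.3 FPKM at 60 min. Every 60 min library stood far below every 0 min library, and the mean was 28.8% of that at 0 min (log2 change -1.77, SE 0.07, limma adjusted p = 1.63e-09). AZF3 (AT5G43170, chr5:17330945-17331646), whose nearest member in coding sequence was ZAT10 at 63.9% identity, fell from 49.9, 66.6 and 51.9 FPKM to 13.5, 16.4 and 14.5 FPKM. AZF1, whose product acts with AZF2 as a repressor under abscisic acid (AT5G67450, chr5:26918765-26920179), fell from 9.39, 13.7 and 10.7 to 2.89, 3.14 and 2.59 FPKM. These 2 falls were of like size, to 26.4% and 25.5% of the 0 min mean (log2 changes -1.84 and -1.65, limma adjusted p = 2.15e-07 and 1.56e-06). The second library of Col-0 at 0 min was the highest of its group for ZAT10, AZF1 and AZF3, and each of the 3 falls was called without it too.

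ZAT12, a central factor of the light and hydrogen peroxide response (AT5G59820, chr5:24102814-24103794), had 35.5, 38.9 and 41.6 FPKM at 0 min and 16.2, 17.2 and 17.7 FPKM at 60 min in Col-0. It fell to 44.0% of its level (log2 change -1.14, SE 0.08, limma adjusted p = 1.15e-07). ZAT11, a hydrogen peroxide-induced factor linked to cell death and root growth (AT2G37430, chr2:15706285-15707224), was the least abundant at 0 min, with 6.31, 7.15 and 5.34 FPKM. At 60 min it had 4.20, 3.73 and 4.53 FPKM. The libraries did not overlap and the fall was called (log2 change -0.49, SE 0.11, limma adjusted p = 0.00133), but it vanished once the trend of salt changes with transcript length was removed (log2 change 0.04, limma adjusted p = 0.713).

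ZAT7 showed the deepest fall. This gene, at AT3G46090, chr3:16925881-16926883, was reported to act in salt tolerance through its EAR motif. Its Col-0 libraries had 10.0, 9.49 and 10.0 FPKM at 0 min and 0.195, 0.602 and 0.191 FPKM at 60 min. The latter values stand for 3, 9 and 3 recovered reads, against 103 to 127 at 0 min, so the level after salt is close to the counting limit. Read sums of 349 at 0 min and 15 at 60 min gave a ratio of 30.3 (exact 95% interval 18.1 to 54.7, for counting error only). On the log2(FPKM + 1) scale, which understates changes of low genes, it fell by 3.04 (SE 0.13, limma adjusted p = 2.03e-09), and with a pseudocount of 0.1 the log2 change was -4.66.

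The neighbour AT3G46080, annotated only as a C2H2-type zinc finger family protein, lies 2581 nt from ZAT7 and shares 88.2% of its coding sequence. It had 8.69, 5.07 and 6.77 FPKM at 0 min and 0.643, 0.946 and 0.900 FPKM at 60 min in Col-0 (log2 change -2.08, SE 0.18, limma adjusted p = 7.02e-07). In dcp5-1 it went from 4.81 ± 1.08 to 0.836 ± 0.239 FPKM (SD, n = 3; log2 change -1.65, limma adjusted p = 6.59e-06). Like ZAT7, it passed the minimum of 1 FPKM only through its 0 min libraries, so these falls had to follow from its passing. Reads of a pair this alike may be divided between the copies by the alignment, so the share of each gene is uncertain, whereas both were low in all 6 libraries of 60 min.

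The same 2 genes rose and 5 of the same 6 fell in dcp5-1. Of the 8, 2 were called higher, 5 lower and 1, ZAT11, was not called, against 35.1% higher and 31.6% lower of all loci tested (66.7% in all). Calls and libraries went together: 2 and 5 members did not overlap between times, against 38.4% and 34.9% of all loci. The median log2 change of the members was -0.82, with 0.02 over all loci and -0.24 over those of like length. Without ZAT7, which passed through its 0 min libraries here too, 2 were higher and 4 lower. Of the shoot markers 3 of 5 were called lower and 0 higher (0 at an unadjusted p under 0.05).

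ZAT6 had 5.16, 4.84 and 4.58 FPKM at 0 min and 28.4, 32.4 and 27.7 FPKM at 60 min in dcp5-1. It rose 6.07-fold (log2 change 2.38, SE 0.08, limma adjusted p = 3.91e-10). AZF2 went from 19.4, 18.1 and 21.4 to 51.1, 48.8 and 47.9 FPKM, a 2.50-fold rise (log2 change 1.28, SE 0.07, limma adjusted p = 2.67e-08). Both rises were free of overlap, and at 60 min AZF2 was the most abundant of the 8 in the mutant as in Col-0. ZAT7 dropped from 10.2, 11.6 and 9.93 to 0.401, 0.264 and 0.0652 FPKM, the latter for 6, 4 and 1 recovered reads. Sums of 433 and 11 reads gave a ratio of 43.8 (exact 95% interval 24.2 to 88.5, for counting error only), an interval that overlaps the one in Col-0 widely.

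ZAT10 fell in dcp5-1 from 78.2, 73.6 and 75.2 FPKM to 29.1, 28.2 and 33.7 FPKM, to 40.1% of its 0 min mean (log2 change -1.29, SE 0.07, limma adjusted p = 2.82e-08). AZF3 had 35.8, 35.5 and 35.6 FPKM at 0 min and 8.77, 13.4 and 10.0 FPKM at 60 min (log2 change -1.66, limma adjusted p = 6.92e-07). AZF1 was at 5.54, 3.87 and 4.90 FPKM and fell to 1.72, 1.15 and 2.01 FPKM (log2 change -1.14, limma adjusted p = 4.62e-05). All 3 genes kept to separate ranges at the 2 times. ZAT12 moved less, from 22.1, 25.01 and 25.9 to 16.9, 15.3 and 18.1 FPKM (log2 change -0.51, SE 0.08, limma adjusted p = 0.000129), and its call was lost with the length trend removed (log2 change -0.17, limma adjusted p = 0.0704). ZAT11 stood at 2.13, 2.37 and 2.39 FPKM at 0 min and 1.75, 2.01 and 2.35 FPKM at 60 min. Its groups overlapped and no difference was called (log2 change -0.12, 95% interval -0.35 to 0.11, limma adjusted p = 0.338). Once the length trend was removed, the estimate was called in the other direction (0.25, limma adjusted p = 0.0477).

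**Figure D2:**
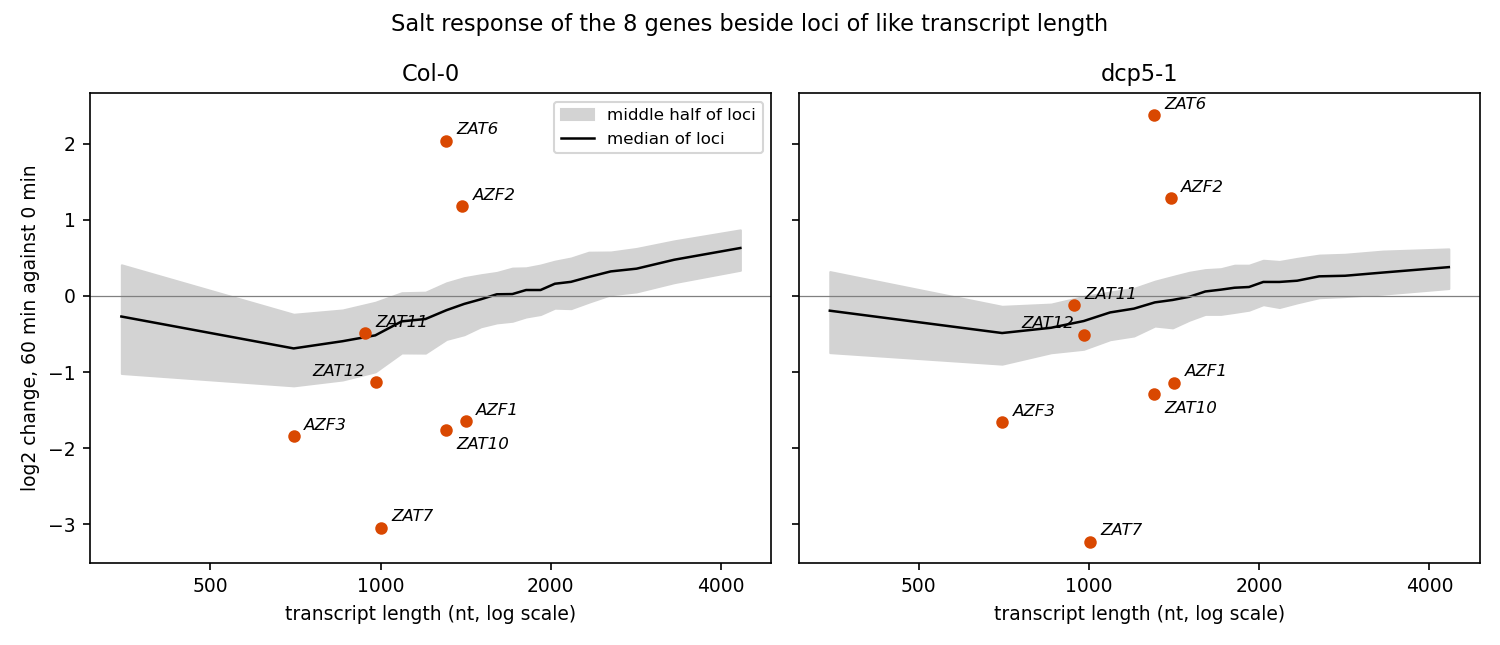
Log2 change of (FPKM + 1) between 0 and 60 min (vertical axis) against transcript length in nt (horizontal axis, log scale) in Col-0 and dcp5-1. The line and the band give the median and the interquartile range of the loci in 20 length bins, and points are the 8 genes. ZAT6, AZF2, ZAT7, ZAT10, AZF1 and AZF3 lie outside the band in both genotypes, ZAT12 only in Col-0, and ZAT11 lies inside it in both.

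From about 702 nt upwards, the median salt change of all loci rose with transcript length, and the 8 transcripts are short. The bin of the shortest loci, around 348 nt, stood apart from this, at -0.27 in Col-0 and -0.19 in dcp5-1. In Col-0 the bin of 991 loci around 702 nt, the length of the AZF3 transcript, had a median log2 change of -0.69, whereas that around 4330 nt stood at 0.63. With this trend removed, the fall of AZF3 in Col-0 was -1.19 instead of -1.84, that of ZAT12 was -0.64 instead of -1.14, and that of ZAT7 was -2.56. The rises became slightly larger, at 2.25 for ZAT6 and 1.33 for AZF2. The directions of ZAT6, AZF2, ZAT7, ZAT10, ZAT12, AZF1 and AZF3 held in both genotypes, and ZAT11 was the gene whose direction did not.

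Before salt, the mutant had less mRNA of 7 of the 8 genes, ZAT7 being the exception. At 0 min 0 members were called higher in dcp5-1 (0 also at an unadjusted p under 0.05, limma), 7 were lower and 1 was not called. Over all loci tested 18.8% were called higher and 28.1% lower, 46.9% in all. With median scaling of the libraries this excess of lower calls over all loci went away, from 3731 higher and 5582 lower to 4733 and 4547, and with quantile normalization it was 4796 and 4496. The members' median log2 change was -0.66, while that of all loci was -0.05 and that of loci of like length -0.02. For the same 7 genes the libraries did not overlap, a pattern held by 30.7% of all loci in the lower and 21.3% in the higher direction. All 5 shoot markers, and all 4 of the root markers that were tested, were called lower over the same comparison.

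ZAT11 and AZF1 stood lowest relative to Col-0 at 0 min. ZAT11 was at 36.6% of the Col-0 mean, 2.29 ± 0.146 against 6.26 ± 0.907 FPKM (SD, n = 3; log2 change -1.13, SE 0.11, limma adjusted p = 7.74e-06). AZF1 was at 42.4%, 4.77 ± 0.843 against 11.2 ± 2.19 FPKM (log2 change -1.08, SE 0.16, limma adjusted p = 0.000179). ZAT6 followed at 44.7% (log2 change -1.02, SE 0.08, limma adjusted p = 2.36e-06). ZAT10, ZAT12 and AZF3 formed a middle group at 62.2%, 63.0% and 63.5% of Col-0, with log2 changes of -0.68, -0.65 and -0.63 and limma adjusted p = 2.39e-05, 5.60e-05 and 0.00300. The AZF2 mean was at 75.1% of the Col-0 mean (log2 change -0.40, SE 0.07, limma adjusted p = 0.000965). ZAT7, by contrast, had 10.6 ± 0.919 FPKM in dcp5-1 and 9.86 ± 0.314 FPKM in Col-0, with overlapping libraries (log2 change 0.09, 95% interval -0.20 to 0.38, limma adjusted p = 0.600).

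After 60 min the mutant still had lower levels of 6 of the 8 genes, ZAT7 and ZAT12 not being called. The count of 0 higher and 6 lower (0 higher at an unadjusted p under 0.05 too, limma) compares with 27.1% higher and 27.4% lower over all loci tested, 54.5% in all. The members' median log2 change was -0.37, with -0.01 over all loci and 0.13 over those of like length. All 8 estimates were below 0, but that of ZAT12 was 0.04 with median scaling. Libraries did not overlap for 5 genes, all lower, against 33.2% of all loci in that direction and 31.9% in the higher one. This comparison shares its libraries with both salt responses. Of the shoot markers 4 of 5 were called lower, as were all 4 root markers tested and all 3 guard cell markers, the last with summed levels of 38.5 to 43.0 FPKM in dcp5-1 and 52.5 to 53.6 FPKM in Col-0.

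ZAT11 was again lowest relative to Col-0, at 49.1% (log2 change -0.76, SE 0.11, limma adjusted p = 0.000115), ahead of AZF1 at 56.6% (-0.57, limma adjusted p = 0.00868) and ZAT6 at 61.8% (-0.68, SE 0.08, limma adjusted p = 3.76e-05). The ZAT6 libraries of the mutant were all under the lowest Col-0 library of 44.9 FPKM. AZF2 was at 81.0% (log2 change -0.30, limma adjusted p = 0.00495). AZF3 was at 72.3% (log2 change -0.45, SE 0.14, limma adjusted p = 0.0166). Its call was lost without the second Col-0 library of 60 min (limma adjusted p = 0.0658) and without replicate 1 (0.0735) or replicate 3 (0.0563) of dcp5-1 at that time, all limma adjusted p.

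ZAT10 had 86.5% of the Col-0 level at 60 min, with 1 mutant library, at 33.7 FPKM, above the lowest Col-0 library at 32.3 FPKM. The difference passed the threshold narrowly (log2 change -0.20, SE 0.07, limma adjusted p = 0.0347). It did not pass with median scaling (limma adjusted p = 0.107), with only the 6 libraries compared in the fit (0.0682), or when the first or the second library of either genotype was left out singly (limma adjusted p from 0.0957 to 0.131). ZAT12 was at 17.0 ± 0.796 in Col-0 and 16.8 ± 1.40 FPKM in dcp5-1 (SD, n = 3), with a log2 change of -0.02, a 95% interval of -0.19 to 0.15 and a limma adjusted p of 0.853. ZAT7 showed no called difference (log2 change -0.09, 95% interval -0.38 to 0.19, limma adjusted p = 0.579). Its 1 to 9 recovered reads per library limit what could be seen.

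**Figure D3:**
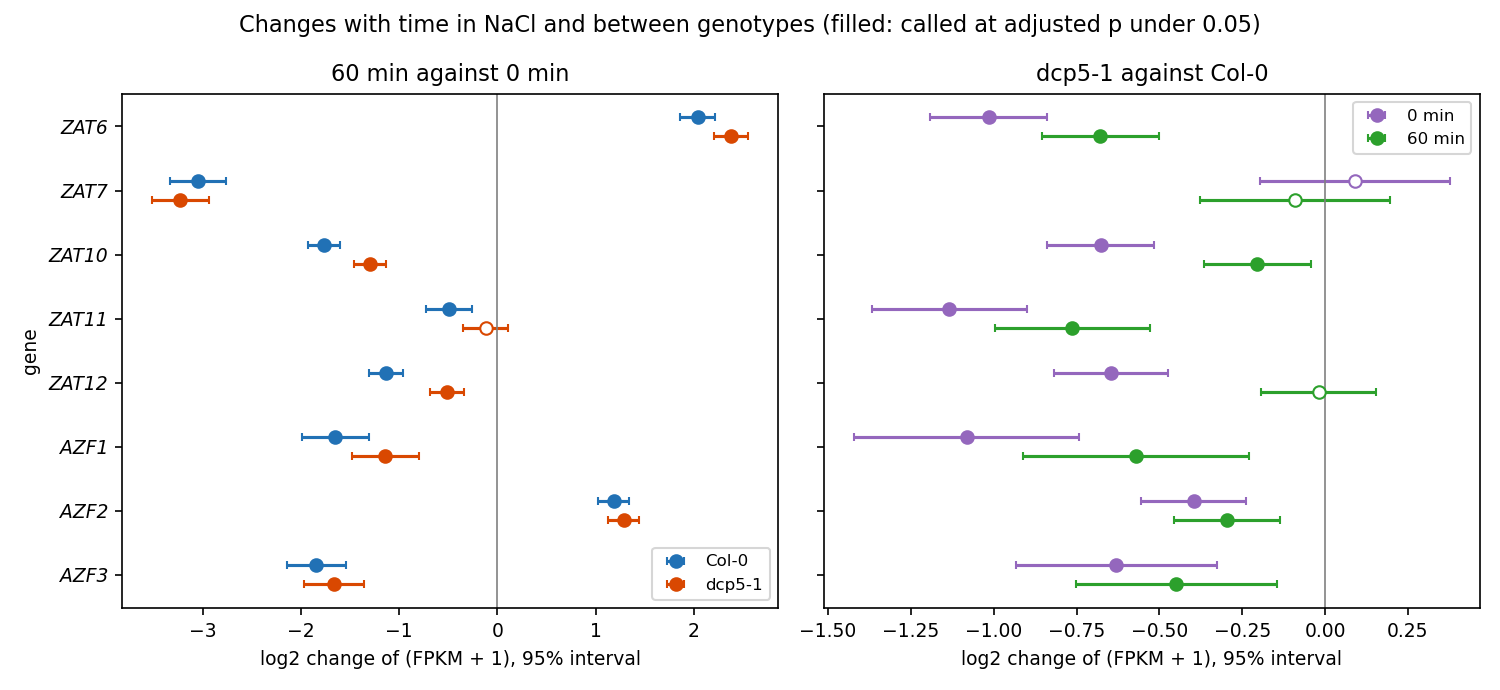
Log2 change of (FPKM + 1) for each gene with its 95% interval (horizontal axes), on the left from 0 to 60 min in each genotype and on the right from Col-0 to dcp5-1 at each time. Filled points were called at an adjusted p under 0.05. The genotype difference at 60 min lies closer to 0 than that at 0 min in ZAT6, ZAT10, ZAT11, ZAT12, AZF1, AZF2 and AZF3, except for AZF2 with quantile normalization and AZF3 with the length trend removed.

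Whether the salt response itself differed between genotypes was tested as an interaction, the log2 change in dcp5-1 minus that in Col-0. It was called for ZAT12 and ZAT10, in the direction of a smaller fall in the mutant. Of the 8 genes 2 were higher, 0 lower and 6 not called, while 5 were higher and 0 lower at an unadjusted p under 0.05 (limma). Over all loci tested 16.3% were called higher and 8.06% lower, 24.4% in all, a split of 3248 to 1602 that became 2033 to 2077 with quantile normalization. The members' median was 0.35, against 0.04 over all loci and 0.16 over those of like length. Of the 5 shoot markers 3 were called higher and 0 lower (0 at an unadjusted p under 0.05), among them RBCS2B with 0.88 and LHCB3 with 0.57, all 3 guard cell markers were called lower, and the part of this in the result was not tested.

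ZAT12 fell to 44.0% of its 0 min level in Col-0 and to 69.0% in dcp5-1, an interaction of 0.63 (SE 0.11, 95% interval 0.38 to 0.87, limma adjusted p = 0.00289). The genotypes were apart at 0 min, and their libraries overlapped at 60 min. ZAT10 fell to 28.8% and 40.1%, an interaction of 0.47 (SE 0.10, 95% interval 0.24 to 0.70, limma adjusted p = 0.00828), which was not called with quantile normalization (0.26, limma adjusted p = 0.0597). For ZAT6 the rise was 4.39-fold in Col-0 and 6.07-fold in dcp5-1, an interaction of 0.34 just short of the threshold (SE 0.11, limma adjusted p = 0.0518). It passed with a pseudocount of 0.1 (0.45, limma adjusted p = 0.0214), with a minimum mean of 5 FPKM (0.0386) and without the first Col-0 library of 0 min (0.0309). With the length trend removed the ZAT6 interaction was 0.24 (limma adjusted p = 0.132), and its lowest estimate in any alternative was 0.12. ZAT11 and AZF1 had interactions of 0.37 and 0.51 (limma adjusted p = 0.0953 and 0.114), and the former was called with quantile normalization (0.49, limma adjusted p = 0.0414) and without Col-0 replicate 3 of 0 min (0.47, limma adjusted p = 0.0409). With the length trend removed the ZAT11 interaction was 0.20 (limma adjusted p = 0.341). The intervals of AZF2 (-0.12 to 0.33), AZF3 (-0.25 to 0.61) and ZAT7 (-0.59 to 0.22) all held 0, and the sign of the AZF2 estimate, 0.10, turned with quantile normalization and that of AZF3, 0.18, with the length trend removed.

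The order of the genes by level changed with salt in both genotypes. At 0 min ZAT10 led in both genotypes, followed without overlap by AZF3, ZAT12 and AZF2. In Col-0 AZF1, ZAT6 and ZAT7 came next with overlapping libraries between neighbours, and ZAT11 was last. In dcp5-1 ZAT7 came after AZF2, ahead of ZAT6 and AZF1, which overlapped. After 60 min AZF2 led in both genotypes, ahead of ZAT6 and ZAT10, which overlapped only in dcp5-1. ZAT12 and AZF3 followed, overlapping only in Col-0, then ZAT11 and AZF1, overlapping only in dcp5-1, and ZAT7 was last in both.

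The summed level of the 8 genes was 281 ± 22.4 in Col-0 and 178 ± 2.64 FPKM in dcp5-1 at 0 min, and 183 ± 10.7 and 141 ± 2.08 FPKM at 60 min (SD, n = 3). No 2 of these groups overlapped except Col-0 at 60 min, with 173 to 195 FPKM, and dcp5-1 at 0 min, with 175 to 180 FPKM. The shares of ZAT10, ZAT6 and AZF2 in the sum moved in the same directions in both genotypes. ZAT10 held 43.4 ± 0.896% of it in Col-0 before salt and 19.2 ± 0.624% after, and in dcp5-1 42.6 ± 1.09% and 21.6 ± 1.97%. ZAT6 went from 3.87% to 26.1% in Col-0 and from 2.74% to 20.99% in dcp5-1. AZF2 went from 9.33% to 33.2% in Col-0 and from 11.1% to 35.1% in dcp5-1, so that ZAT6 and AZF2 together made up most of the sum after salt.

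**Figure D4:**
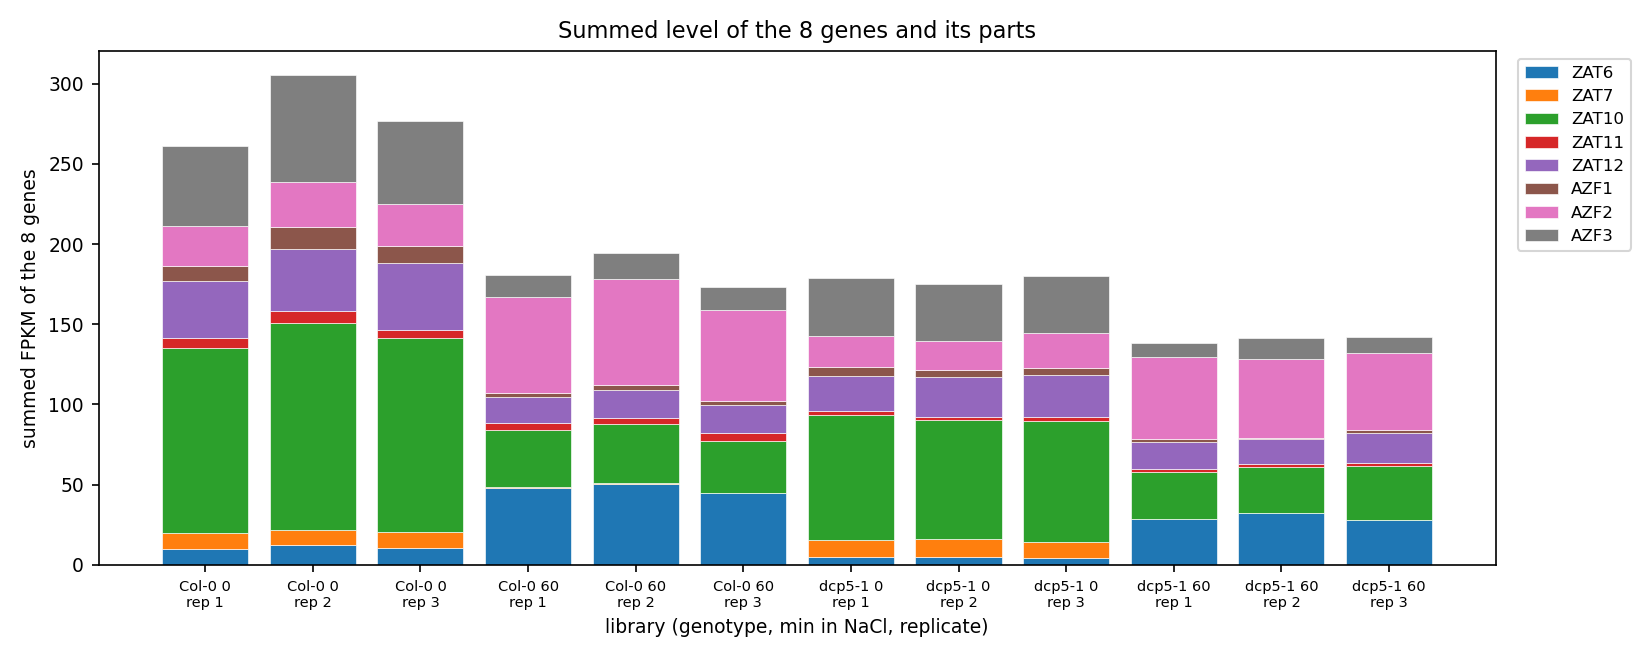
Summed FPKM of the 8 genes (vertical axis, from 0) in each of the 12 libraries, stacked by gene. Bars of Col-0 at 0 min are the tallest, at 261 to 305 FPKM, and at 60 min the parts of ZAT6 and AZF2 are wider in both genotypes while those of ZAT10 and AZF3 are narrower.

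The promoters of both genes that rose and of ZAT10, the relative of ZAT6 that fell, are shown because these genes share finger sequence but not direction. Each covers the 250 bases before the annotated transcript start in TAIR10.1 of NCBI RefSeq, 5′ to 3′ on the strand of the gene. Capitals mark matches on either strand to ACGTG (the core of abscisic acid response elements), CCGAC (the core of the dehydration-responsive element), TTGAC (the W-box core bound by WRKY factors), GCCGCC (the GCC box of ethylene response factors), CGCGTT (a rapid stress response element) and TATAAA.
ZAT6: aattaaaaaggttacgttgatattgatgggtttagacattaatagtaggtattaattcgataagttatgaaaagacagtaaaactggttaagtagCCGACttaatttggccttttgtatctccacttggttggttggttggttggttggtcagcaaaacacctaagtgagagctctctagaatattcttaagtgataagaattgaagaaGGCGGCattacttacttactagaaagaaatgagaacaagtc
AZF2: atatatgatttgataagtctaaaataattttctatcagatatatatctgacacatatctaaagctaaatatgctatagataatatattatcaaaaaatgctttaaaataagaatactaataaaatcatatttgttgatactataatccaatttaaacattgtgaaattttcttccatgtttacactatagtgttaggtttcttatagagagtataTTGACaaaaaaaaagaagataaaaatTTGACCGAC
ZAT10: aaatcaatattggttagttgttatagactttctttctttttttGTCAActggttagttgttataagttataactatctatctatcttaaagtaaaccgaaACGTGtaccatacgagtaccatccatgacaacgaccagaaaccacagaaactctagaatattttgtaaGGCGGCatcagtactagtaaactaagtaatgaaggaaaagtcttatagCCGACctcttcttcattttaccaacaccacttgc
These are chr5:1217363-1217612 for ZAT6, chr3:6804297-6804546 for AZF2 and chr1:9649324-9649573 for ZAT10, all on the minus strand. CCGAC was found in these 3 promoters and in no other of the 8, and 12.0% of 27443 promoters of the same length hold it. In AZF2 it overlaps a TTGAC match by 1 base, directly before the annotated start. GCCGCC was found on the opposite strand in ZAT6 and ZAT10, and in 1.9% of promoters. ACGTG was in ZAT10 alone of the 8 and in 22.9% of promoters. TTGAC was in 6 of the 8, not in ZAT6 or AZF3, and in 44.9% of promoters. TATAAA was in ZAT7 alone and in 47.3% of promoters, and CGCGTT was in none of the 8 and in 2.6% of promoters. The matches thus did not divide the genes that rose from those that fell, and a match is a run of letters, not a bound site.

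The genes most like each member over the 12 libraries were found by the root mean square difference of log2(FPKM + 1) after centring each gene on its mean. A difference of 0 is an identical profile. Since these genes were chosen by likeness, their courses resemble those of the members by selection. The nearest to ZAT6 was the NAC factor gene ATAF1, at a difference of 0.0783. It had 56.7 and 254 FPKM in Col-0 and 29.0 and 144 FPKM in dcp5-1 at 0 and 60 min. FMO GS-OX4 (0.116) and AIRP2 (0.168) came next. AZF2 was nearest to SIP3 (0.0964), BAM1 (0.0966) and CER9 (0.101). ZAT10 was nearest to LHCA4 (0.0773), ZIP2 (0.0841) and CAB2 (0.0855), of which LHCA4 and CAB2 encode light-harvesting proteins. LHCA4 had 4963 and 1423 FPKM in Col-0 and 3064 and 1161 FPKM in dcp5-1 at 0 and 60 min, a far higher level with the same relative course.

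ZAT12 was nearest to AXR3 (0.0989), PSI-P (0.105) and EXL3 (0.110), and AXR3, an auxin response repressor gene, had 140 and 69.1 FPKM in Col-0 and 98.1 and 68.0 FPKM in dcp5-1. ZAT7 was nearest to CML37 (0.175), SOB5 (0.231) and BZIP34 (0.245). CML37, a calmodulin-like gene, had 23.1 and 2.16 FPKM in Col-0 and 23.8 and 2.15 FPKM in dcp5-1, a course that follows from its choice by likeness to ZAT7. ZAT11 was nearest to CYP706A1 (0.128), MYB47 (0.134) and ERF5 (0.141), AZF1 to PUB26 (0.145), XTH25 (0.175) and LHCB1.3 (0.196), and AZF3 to UPI (0.164), GIK (0.170) and APRL6 (0.170). Between members the difference was 0.220 for ZAT10 and AZF3 and 0.236 for ZAT10 and AZF1, but 1.88 for ZAT10 and ZAT6 and 2.71 for ZAT6 and ZAT7.

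Of 10 genes of TOPLESS-type corepressors, histone deacetylases and their partners, which EAR motif proteins recruit, 8 were called higher, 1 lower and 1 not called in Col-0, and the counts were the same in dcp5-1. Of all loci 36.3% were called higher in Col-0 and 35.1% in dcp5-1. Their median log2 changes were 0.79 and 0.44, beside 0.01 and 0.02 over all loci tested. Their transcripts are long, with a median of 3918 nt, and the loci around 4330 nt had medians of 0.63 and 0.38. TPR2, a TOPLESS-related gene, rose from 7.07 ± 0.365 to 16.8 ± 0.509 FPKM in Col-0 and from 5.13 ± 0.0524 to 11.0 ± 0.633 FPKM in dcp5-1 (SD, n = 3). TPL itself rose from 19.3 to 34.55 FPKM in Col-0 and from 21.8 to 37.7 FPKM in dcp5-1. SAP18, a subunit of the deacetylase complex, was the 1 that fell, from 90.5 to 55.4 FPKM in Col-0 and from 94.1 to 67.7 FPKM in dcp5-1. Between genotypes 1 was higher, 5 lower and 4 not called at 0 min, and 1 higher, 6 lower and 3 not called at 60 min, when SNL2 had 8.25 FPKM in dcp5-1 and 14.6 FPKM in Col-0. Over all loci 18.8% were called higher and 28.1% lower at 0 min, and 27.1% and 27.4% at 60 min. The interaction was called higher for 2, lower for 3 and not for 5, beside 16.3% higher and 8.06% lower of all loci.

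Regulators reported upstream of ZAT genes, such as mitogen-activated kinases, heat shock factors, CAMTA, ERF and WRKY factors, were called in both directions with salt, and between genotypes the calls were lower in the mutant. Of 14 genes, 6 were called higher, 7 lower and 1 not called in Col-0, and 7, 5 and 2 in dcp5-1. Of all loci 72.0% were called in Col-0 and 66.7% in dcp5-1, in either direction. In dcp5-1 against Col-0, 0 were higher, 10 lower and 4 not called at 0 min and 0, 11 and 3 at 60 min (0 higher at an unadjusted p under 0.05 at either time, limma), with median log2 changes of -0.39 and -0.51 beside -0.05 and -0.01 over all loci, of which 28.1% and 27.4% were called lower. HSFA4A, a heat shock factor gene, was among those not called at 0 min, with 7.34 ± 0.432 FPKM in dcp5-1 and 7.09 ± 0.583 FPKM in Col-0. ERF6, an ethylene response factor downstream of the kinases, fell from 63.7 ± 13.5 to 10.8 ± 0.736 FPKM in Col-0 and from 13.7 ± 0.280 to 2.73 ± 0.378 FPKM in dcp5-1. Its libraries were thus separate in all 4 groups, as were those of the kinase gene MPK3, with means of 73.4 and 20.8 FPKM in Col-0 and 42.3 and 14.0 FPKM in dcp5-1. WRKY33 had 47.6 and 57.2 FPKM in Col-0 and 17.3 and 19.5 FPKM in dcp5-1. CAMTA1, a calmodulin-binding activator gene, rose from 9.28 to 23.3 FPKM and from 8.41 to 15.7 FPKM, with an interaction of -0.41. Interactions were called for 2 higher, 2 lower and not for 10 of the 14, beside 16.3% higher and 8.06% lower of all loci.

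Genes reported downstream of ZAT and AZF factors in Arabidopsis mutants or overexpressors did not move as 1 group. Of 14, 7 were called higher, 6 lower and 1 not called with salt in Col-0, and 6, 4 and 4 in dcp5-1. Over all loci 72.0% were called in Col-0 and 66.7% in dcp5-1, in either direction. Median log2 changes were 0.03 and 0.15, beside 0.01 and 0.02 over all loci. CBF3 averaged under 1 FPKM at 0 min in both genotypes and passed the minimum of 1 FPKM through its 60 min libraries. Without it, 6 were higher, 6 lower and 1 not called in Col-0 (median -0.23) and 5, 4 and 4 in dcp5-1 (median 0.12). The sign of the Col-0 median thus rested on CBF3. On the log2(FPKM + 1) scale RD29A and SAUR20 marked the ends. RD29A is a dehydration response gene, and SAUR20 a small auxin-up gene of a family that AZF1 and AZF2 were reported to repress. By the ratio of means CBF3 rose more in Col-0, 58.1-fold from 0.109 FPKM, against 31.1-fold for RD29A. RD29A rose to 373 ± 9.74 in Col-0 and 263 ± 10.4 FPKM in dcp5-1. SAUR20 fell from 52.5 ± 3.16 to 8.06 ± 1.59 FPKM in Col-0 and from 26.6 ± 1.97 to 2.74 ± 0.786 FPKM in dcp5-1. CBF2, which encodes a factor of the cold response, was lower in the mutant at both times, at 13.0 against 42.4 FPKM and 11.6 against 33.9 FPKM, as means of 3. FIT, an iron uptake regulator, fell in Col-0 from 5.38 to 2.00 FPKM and in dcp5-1 from 3.79 to 1.37 FPKM. Between genotypes 0 were higher (1 at an unadjusted p under 0.05, limma), 6 lower and 8 not called at 0 min, and 2, 9 and 3 at 60 min, with medians of -0.15 and -0.42, against 28.1% and 27.4% of all loci called lower. The interaction was called higher for 1, lower for 4 and not for 9, beside 16.3% higher and 8.06% lower of all loci. CBF3 stood at -1.22 and CBF1 at -0.89.

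Other C2H2 genes with repressor motifs and a single finger, which act in trichomes, flowers and hormone responses, were tested for 10 of 14. With salt 2 were called higher, 5 lower and 3 not called in Col-0 and likewise in dcp5-1, with median log2 changes of -0.34 and -0.26. That 7 of 10 were called is close to the 72.0% and 66.7% of all loci. Leaving out genes that averaged under 1 FPKM at one of the times (3 in Col-0, 2 in dcp5-1), 2 were higher, 3 lower and 2 not called in Col-0, where the median turned to 0.10, and 2, 4 and 2 in dcp5-1. ZFP8 fell from 91.9 ± 6.62 to 13.1 ± 0.732 FPKM in Col-0 and from 96.8 ± 8.90 to 13.3 ± 0.368 FPKM in dcp5-1, with overlapping genotypes at either time. ZFP5 rose from 6.61 to 18.1 FPKM and from 6.32 to 14.8 FPKM. Between genotypes 3 were higher, 1 lower and 6 not called at 0 min and 1, 2 and 7 at 60 min. Over all loci 18.8% were called higher and 28.1% lower at 0 min, and 27.1% and 27.4% at 60 min. The interaction was called for 0 higher (1 at an unadjusted p under 0.05, limma), 2 lower and not for 8, beside 16.3% higher and 8.06% lower of all loci.

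Of 10 further genes of the ZAT family outside the 8, 7 were tested. None was called higher with salt (0 at an unadjusted p under 0.05 in either genotype, limma). In Col-0 5 were lower and 2 not called, in dcp5-1 4 and 3, with median log2 changes of -0.60 and -0.62, beside -0.37 and -0.24 over loci of like length (677 to 1431 nt), while 35.7% and 31.6% of all loci were called lower. Without genes that averaged under 1 FPKM at one of the times, AT3G46080 among them, 4 were lower and 2 not called in Col-0 and 2 and 2 in dcp5-1. Apart from AT3G46080, AT5G03510 fell from 15.4 ± 1.68 to 7.99 ± 0.420 FPKM in Col-0 and from 14.9 ± 0.446 to 9.36 ± 0.338 FPKM in dcp5-1. At 0 min 0 were higher in dcp5-1 (0 at an unadjusted p under 0.05, limma), 1 lower and 6 not called, and at 60 min 2 were higher, 1 lower and 4 not called. Over all loci 18.8% were called higher and 28.1% lower at 0 min, and 27.1% and 27.4% at 60 min. AT2G28200 was higher in dcp5-1 at 60 min, with 11.2 ± 0.0579 against 7.94 ± 0.616 FPKM, and had an interaction of 0.55, the 1 called higher, while 0 were lower (0 at an unadjusted p under 0.05, limma) and 6 not called. Interactions over all loci were called higher for 16.3% and lower for 8.06%.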

How the data were processed

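FPKM values of 38088 loci in 12 libraries were taken as the authors deposited them, apart from 1 empty line. Bowtie (no version) and build TAIR10 are named in the submitters' processing notes, with annotation and quantification program not given in the sources used here. Of the loci 37792 matched the NCBI RefSeq annotation of TAIR10.1, which gave names, coordinates and lengths. For genes with 1 transcript of over 1000 nt, 1 length correction and 1 scale were fitted in each library. Of their 996 to 1076 values below 10 reads, 98.94% to 99.512% then lay within 0.1 read of a whole number. Members' reads were estimated from the same fit.

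On log2(FPKM + 1), the 4 group means were estimated per locus by limma 3.58.1 (R 4.3.3), with a variance trend (8 residual and 3.29 prior degrees of freedom), wherever the mean over libraries reached 1 FPKM, which left 19876 loci. All p-values are two-sided and adjusted by Benjamini-Hochberg across these, and calls need an adjusted p under 0.05. The code for the salt comparison in Col-0 was run on simulated data with known changes in few loci and no length trend. That setting differs from the data here and so does not test the calls made. Intervals are 95%. Alternatives were another pseudocount, filters, scalings, a replicate block, removal of the length trend, and leaving out each library. Within groups libraries correlated at r = 0.957 to 0.974 across loci, between groups at 0.863 to 0.954.

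All 8 members are named, as are AT3G46080 and the 3 most alike loci with a symbol per member. From each list, up to 2 called loci per direction and contrast were picked by the largest change at a mean of at least 5 FPKM. Only part of these are named above, and TPR4, HDA19, COR47, ZFP3 and ZFP4 are among those left out. Some genes, such as COBL9 and NRT2.1, are named outside this rule. No table of reference proteins was used, so a hand list served for further ZAT genes, and genes without a RefSeq symbol are given by locus. The members and lists were chosen with earlier results of these data known. Fingers were located by translating coding sequences; Python 3.11.15, numpy 2.4.6, pandas 2.3.3, matplotlib 3.10.9, Biopython 1.88 and pysam 0.24.0 were used.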

Additional observations from a re-analysis of the deposited data

Results flagged for a closer look

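Genes are given here where the salt response differed between the genotypes by a test of the difference itself. ZAT12 did so, with an interaction of 0.63 log2 units (limma adjusted p = 0.00289): it fell by 1.14 in Col-0 and by 0.51 in dcp5-1, lower in 3 of 3 libraries of 60 min than in any of 0 min in each genotype. ZAT10 did so with an interaction of 0.47 (limma adjusted p = 0.00828), and its log2 changes were -1.77 in Col-0 and -1.29 in dcp5-1, with no overlap either. The ZAT10 interaction was 0.26 with quantile normalization (limma adjusted p = 0.0597). Over all loci 24.4% had a called interaction.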

How the results depend on the processing

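Of 416 recomputed counts of calls, 415 were within 1.5 times their main value. The exception was the count of all loci with a higher interaction, 3248, which became 2033 with quantile normalization. Directions turned in few cases, none of them a called value of the main comparisons except ZAT11 in Col-0. With the length trend removed, the salt change of ZAT11 was 0.044 in Col-0 and 0.25 in dcp5-1, and the AZF3 interaction was -0.0079. The AZF2 interaction was -0.12 with quantile normalization. At 60 min the genotype difference of ZAT12 was 0.0365 with median scaling, and ran from -0.073 to 0.0405 with libraries left out singly; that of ZAT7 ran from -0.18 to 0.050. The cause was not tested. All 167 recomputed values of dcp5-1 against Col-0 at 0 min kept direction and call. At 60 min ZAT10 and AZF3 lost their calls together without the second Col-0 or the first dcp5-1 library, which left 4 of 6 calls. Fold changes of ZAT7 are limited by its 1 to 9 reads per library at 60 min. Scalings moved the median of all loci by under 0.1 log2 units.

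Replicate numbers were shared between groups, but deviations of libraries with the same number correlated at only -0.103 to 0.18, so the numbers were not taken to pair the libraries, and not every library correlated best with its own number. Between dcp5-1 at 0 and 60 min each library did, at 0.18, 0.08 and 0.109, against -0.143 to 0.035 for unlike numbers. With a replicate block, 7178 loci were higher and 7075 lower with salt in Col-0, and the interaction was higher for 3117 and lower for 1443. Among the 8 genes the block changed 2 calls: ZAT10 at 60 min was lost (limma adjusted p = 0.0558), leaving 5 lower, and the ZAT6 interaction was gained (0.0253, limma), making 3 higher.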
